A study of Mus musculus with 6 samples.

Results

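The 28 genes described here encode receptors for the inhibitory transmitters GABA and glycine, the enzymes that make and break down GABA, the carrier that loads both transmitters into vesicles, a receptor scaffold and 2 chloride transporters. They were taken by symbol from a list that was chosen with earlier results of these data known. All 28 were found among 55359 annotated genes. Expression was measured by RNA sequencing in whole brain of mouse embryos at E18.5, in 3 libraries of PME-1 S156A knock-in embryos and 3 libraries of wild-type (WT) embryos. PME-1 is the methylesterase of protein phosphatase 2A, and S156A replaces its active-site serine by alanine. Each library was made from a pool of 3 brains, so the spread between libraries is not the spread between embryos. The labels used here state neither zygosity nor strain or sex.

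GABA and glycine open chloride channels, and whether chloride enters or leaves the cell depends on the transporters that set its gradient. Slc12a2 (NKCC1) brings chloride into immature neurons, Slc12a5 (KCC2) extrudes it from maturing ones, and the balance between them shifts as neurons mature. GABA is used throughout the brain, whereas neurons that release glycine lie mostly in brainstem and spinal cord. The vesicular carrier Slc32a1 is shared by both kinds of neuron.

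Values are TPM, each gene's length-corrected share of the transcripts in a library. The annotated rows used here added up to 93.1% to 95.8% of 1000000 TPM in a library, the least in WT replicate 2. Tests used limma on log2(TPM + 1) over the 18893 annotated genes whose TPM averaged 1 or more, and differences on that scale are S156A minus WT. Because TPM is a share of a library and the tissue is whole brain, fewer cells of a type and less RNA per cell cannot be told apart. The estimated depth was 3.24 to 4.14 aligned gigabases in S156A libraries and 3.15 to 3.37 in WT libraries. S156A replicate 1 and WT replicate 3 stood apart from the other libraries on the leading principal component (47.0% of the variance). They also held the most RNA of 9 skeletal muscle genes, with a summed level of 7582 TPM in S156A replicate 1, against 60.2 and 50.1 TPM in S156A replicates 2 and 3. In WT replicates 1, 2 and 3 the muscle sum was 17.5, 888.7 and 6865 TPM. The part of muscle RNA in the results below was not tested, and values without both libraries are given where they bear on a result. Defining neuronal markers were abundant in all libraries, with 8 pan-neuronal genes summing to 2632 to 3793 TPM in S156A libraries and 3644 to 5037 TPM in WT libraries.

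The promoter bases of 4 genes on which the comparison turned are shown first: Slc12a5 at 2 annotated starts, since it had the lowest S156A level relative to WT among the abundant members, and Slc32a1, Gad1 and Gad2, which make GABA or load it into vesicles in the same inhibitory neurons. Of the 28 genes, 24 entered the promoter search, with 29 RefSeq starts in all (build GRCm38.p6). Glra1, Gabrd and Abat had no promoter entry. Slc12a2 was left out of the search, so its promoter is not described here and is not counted as lacking an entry. Each sequence ends at the base before the start, lies on the plus strand and is written 5′ to 3′, and capitals mark TGACTCA or GGGCGG on either strand.
Slc12a5, upstream start, chr2:164960676-164960845: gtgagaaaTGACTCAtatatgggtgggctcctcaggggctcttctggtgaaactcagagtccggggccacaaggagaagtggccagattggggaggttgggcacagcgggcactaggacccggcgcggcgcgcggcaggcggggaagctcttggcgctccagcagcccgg
Slc12a5, downstream start, chr2:164967888-164967987: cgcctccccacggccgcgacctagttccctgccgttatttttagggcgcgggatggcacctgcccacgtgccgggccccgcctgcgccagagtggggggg
Slc32a1, chr2:158610658-158610757: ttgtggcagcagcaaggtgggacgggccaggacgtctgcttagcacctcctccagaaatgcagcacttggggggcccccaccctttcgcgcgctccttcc
Gad1, chr2:70562029-70562128: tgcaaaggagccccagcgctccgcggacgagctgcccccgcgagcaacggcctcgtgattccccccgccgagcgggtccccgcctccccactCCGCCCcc
Gad2, chr2:22622227-22622326: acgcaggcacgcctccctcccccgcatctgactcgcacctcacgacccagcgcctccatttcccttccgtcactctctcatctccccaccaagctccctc

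These promoters were rich in CG dinucleotides, with a median of 13 per 300-base window (250 before and 50 after the start) over the 29 starts, against 7 over all 32851 starts. TGACTCA, the letters bound by Jun and Fos proteins, was in 1 of the 29 windows, at the upstream start of Slc12a5, and in 5.2% of all windows. GGGCGG, the GC box, was in 16 of the 29 and in 35.7% of all windows. The other 13 strings were also searched on both strands. GGACAG was in 13 of the 29 windows and 22.2% of all, CCAAT in 14 and 37.4%, TATAAA in 5 and 13.6%, and CATCTG in 3 and 17.2%. CAGCTG was in 1 of the 29 and 16.3% of all, TAATTA in 1 and 5.29%, TCACCTG in 2, at Gabrq and Slc32a1, and 6.3%, and GCGGGGGCG in 2, at Gad1 and Glra3, and 2.91%. None of the 29 windows held GCGTGGGCG (0.612% of all), TTAGGTCA (0.667%), TTCAGCACC (0.371%) or TGACGT (7.51%), which lies inside TGACGTCA (1.79%, also in none). A match describes the letters of a window and not a site in use.

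Most members were lower in S156A brains, and none passed the adjusted threshold. Of the 28 genes, 22 reached a mean TPM of 1 and were tested, and 0 had an adjusted p under 0.05, a rule that called 0.159% of all tested genes. Their adjusted p ran between 0.11 for Slc32a1 and 0.92 for Glra2. Of the 22 genes, 19 had a log2 difference below 0, as did 38.3% of all tested genes. At an unadjusted p under 0.05, 10 were lower in S156A, against 5.5% of all tested genes, and 1 was higher, Slc12a2, against 8.41%. In 10 of the 22 every S156A library lay below every WT library, against 7.05% of all tested genes, and in 1 every S156A library lay above, against 13.7%. The median log2 difference was -0.40 over the 22 genes and 0.09 over all tested genes. Since the members were chosen with earlier results known, these shares and medians are descriptions and were not tested. The count of 10 was 5 without S156A replicate 1, 5 without WT replicate 1 and 4 without WT replicate 2, and it was 7 without both muscle-rich libraries. In these fits 4.57%, 3.49%, 3.42% and 6.11% of all tested genes were lower at the same threshold, in that order.

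**Figure D1:**
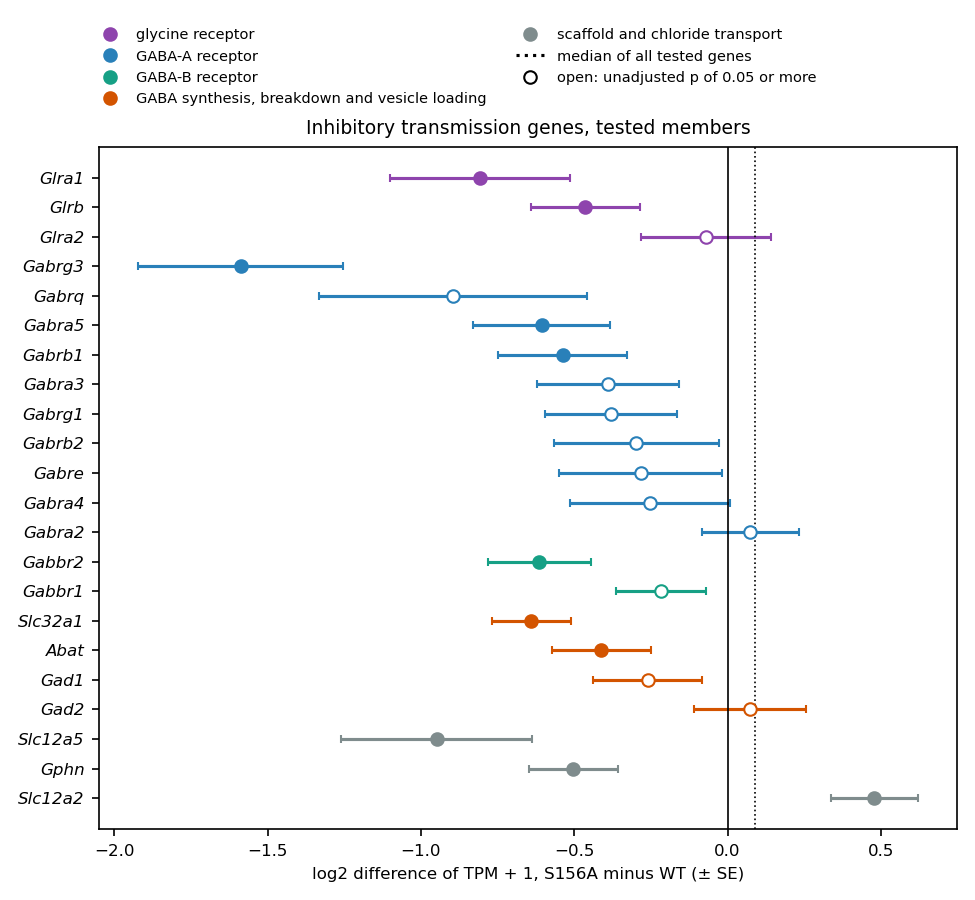
Log2 difference of TPM + 1, S156A minus WT, with its standard error for the 22 tested members (3 libraries per group), grouped by role, with filled points for an unadjusted p under 0.05. Slc12a2 lies to the right at 0.48, most other points lie left of 0, and the dotted line marks the median of all tested genes at 0.09.

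The chloride transporters differed in opposite directions. Slc12a5, the potassium-chloride cotransporter that extrudes chloride (chromosome 2, 164802722 to 164841651 in the files' coordinates, inferred to be GRCm39), was at 32.3, 70.7 and 57.6 TPM in S156A replicates 1 to 3, against 124.8, 107.2 and 72.9 TPM in WT replicates 1 to 3. Its groups did not overlap, although S156A replicate 2 and WT replicate 3 were close, and the log2 difference was -0.95 (SE 0.31; limma adjusted p = 0.27). Slc12a2, the sodium-potassium-chloride cotransporter that imports chloride, was at 28.6, 36.3 and 31.1 TPM in S156A libraries and at 21.5, 21.2 and 25.2 TPM in WT libraries. All S156A libraries were above all WT libraries, with 0.48 as the log2 difference (SE 0.14; limma adjusted p = 0.23). Without both muscle-rich libraries the log2 differences were -0.85 for Slc12a5 and 0.63 for Slc12a2. Slc12a5 missed an unadjusted p of 0.05 without WT replicate 1 (limma unadjusted p = 0.061) and without WT replicate 2 (0.053).

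A plain ratio of both genes inside a library does not depend on how libraries are scaled. It can still depend on the mix of cells in the tissue, and the part of that mix in this ratio was not tested. Slc12a5 was 1.13, 1.95 and 1.85 times as abundant as Slc12a2 in S156A replicates 1 to 3, against 5.79, 5.06 and 2.90 times in WT replicates 1 to 3. The mean ratio was 1.64 ± 0.45 in S156A and 4.58 ± 1.51 in WT (SD, n = 3 each). On the log2(TPM + 1) scale the ratio differed by -1.43, with no overlap between the groups (exact permutation test, two-sided, p = 0.1, the smallest that 3 against 3 libraries allow; adjusted p = 0.13 over the 4 ratios compared). Without both muscle-rich libraries this difference was -1.48. Kinases that act on these transporters, directly or through other kinases, gave no calls. Of 5 tested genes, Wnk1, Wnk2, Wnk3, Stk39 and Oxsr1, 0 reached an unadjusted p under 0.05 and their median log2 difference was 0.01. Of all tested genes, 5.5% were lower and 8.41% higher at that threshold. Wnk2 (-0.24), Wnk1 (0.26) and Stk39 (-0.09) all had overlapping groups, at adjusted p between 0.44 and 0.97 for the list.

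None of the 4 genes of GABA synthesis, breakdown and vesicle loading passed the adjusted threshold. Slc32a1, the vesicular carrier for GABA and glycine (chromosome 2, 158452687 to 158457668), was at 58.8, 70.8 and 72.8 TPM in S156A libraries and at 109.0, 114.5 and 93.3 TPM in WT libraries. The groups were well apart, with means of 67.5 ± 7.54 TPM in S156A and 105.6 ± 11.0 TPM in WT (SD, n = 3 each). The log2 difference was -0.64 (SE 0.13; limma adjusted p = 0.11), the smallest p among the members, and -0.63 without both muscle-rich libraries.

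Gad1 and Gad2 encode the glutamate decarboxylases that make GABA. Gad1 (chromosome 2, 70383416 to 70432358) was at 77.5, 108.3 and 94.7 TPM in S156A libraries, against 130.5, 116.8 and 90.1 TPM in WT libraries, with overlapping groups and -0.26 as the log2 difference (SE 0.18; limma adjusted p = 0.56). An antisense gene, Gad1os, overlaps 10286 bases of it and averaged 1.17 TPM. Gad2 was at 34.4, 45.3 and 33.6 TPM in S156A libraries and at 43.4, 34.6 and 29.8 TPM in WT libraries, also with overlap (log2 difference 0.07, SE 0.18; limma adjusted p = 0.89), and its sign turned to -0.01 when libraries were scaled by a trimmed mean. Gad1 was 2.25, 2.39 and 2.82 times as abundant as Gad2 in S156A libraries and 3.01, 3.38 and 3.02 times in WT libraries. These ratios did not overlap, and on the log2(TPM + 1) scale they differed by -0.33 (exact permutation test, two-sided, p = 0.1, the smallest possible; adjusted p = 0.13 over 4 ratios). Without S156A replicate 1 the difference of Gad1 was -0.13, and without WT replicate 1 it was -0.15. Abat, the transaminase that breaks GABA down, was at 48.1, 69.2 and 51.0 TPM in S156A libraries and at 79.8, 77.1 and 65.8 TPM in WT libraries. Only S156A replicate 2 reached into the WT range (log2 difference -0.41, SE 0.16; limma adjusted p = 0.33).

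**Figure D2:**
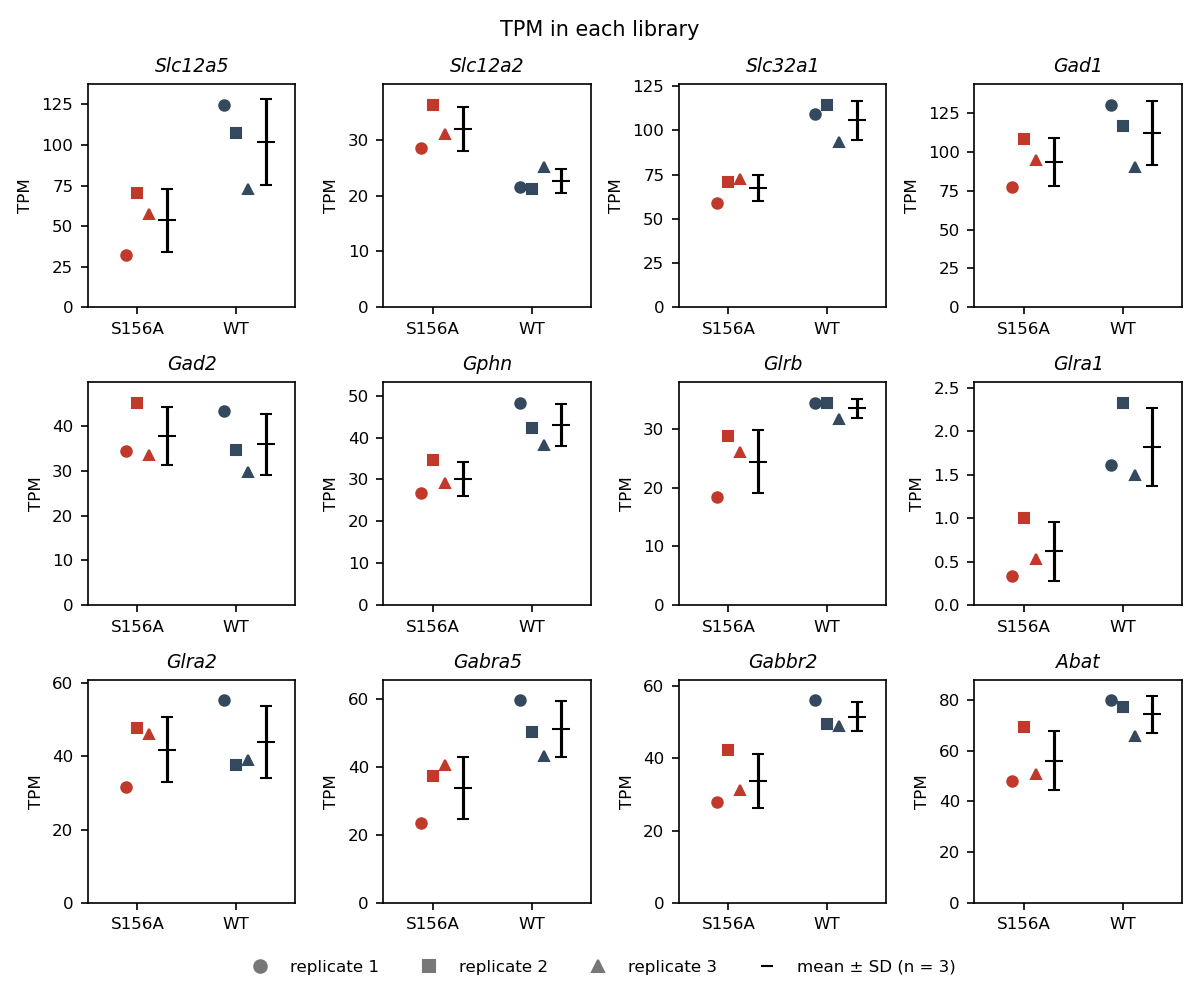
TPM of 12 members in each library, with S156A in red and WT in dark blue, a symbol for each replicate and the mean ± SD (n = 3) beside each group; each panel starts at 0. S156A replicate 1 is the lowest of the S156A libraries in each panel but that of Gad2, and Slc12a2 is higher in S156A.

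Glycine receptors are pentamers of alpha subunits with the beta subunit Glrb, which anchors them to the scaffold gephyrin. Glrb (chromosome 3, 80750906 to 80820967) was at 18.4, 28.8 and 26.1 TPM in S156A libraries and at 34.4, 34.5 and 31.6 TPM in WT libraries. The groups did not overlap, and the log2 difference stood at -0.46 (SE 0.18; limma adjusted p = 0.33), and -0.32 without both muscle-rich libraries. Without S156A replicate 1 alone it was -0.28 (limma unadjusted p = 0.075). Glra2, the main alpha subunit of the embryonic brain, was the most abundant glycine receptor gene, at 31.6, 47.8 and 46.1 TPM in S156A libraries and at 55.3, 37.6 and 39.0 TPM in WT libraries. Its groups overlapped, with S156A replicate 1 the lowest and WT replicate 1 the highest of the 6 libraries (log2 difference -0.07, SE 0.21; limma adjusted p = 0.92), and the sign turned to 0.04 without both muscle-rich libraries.

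Glra1, the alpha subunit of mature brainstem and spinal cord, was at a low level, 0.33, 1.00 and 0.53 TPM in S156A libraries and 1.62, 2.33 and 1.5 TPM in WT libraries (log2 difference -0.81, SE 0.29; limma adjusted p = 0.30). Glra3 was at 0.47, 0.49 and 0.65 TPM in S156A libraries and at 1.44, 1.33 and 1.53 TPM in WT libraries, and its mean of 0.98 TPM fell just short of the level needed for a test. In both genes every S156A library was below every WT library. Loci assembled by the authors' software over the same strand of these genes did not separate the groups, with 2.2, 3.86 and 2.47 TPM for Glra1 in S156A and 1.62, 5.91 and 2.31 TPM in WT. For Glra3 the assembled loci held 3.02, 2.93 and 0.69 TPM in S156A and 3.38, 2.70 and 6.77 TPM in WT. Glra4 stayed at or below 0.36 TPM in all libraries. The plain ratio of Glra1 to Glra2 was 0.014 ± 0.0057 in S156A and 0.043 ± 0.017 in WT (SD, n = 3 each), a difference of -0.74 on the log2(TPM + 1) scale (exact permutation test, two-sided, p = 0.1, the smallest possible; adjusted p = 0.13 over 4 ratios). This difference was -0.33 on FPKM (exact p = 0.3), -0.21 with a pseudocount of 5 (exact p = 0.4) and -1.42 with a pseudocount of 0.1 (exact p = 0.1).

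Gphn, encoding gephyrin, the scaffold that clusters glycine receptors and many GABA-A receptors (chromosome 12, 78273153 to 78731546), was at 26.8, 34.5 and 29.1 TPM in S156A libraries and at 48.4, 42.4 and 38.3 TPM in WT libraries. The groups did not overlap, and the log2 difference stood at -0.50 (SE 0.15; limma adjusted p = 0.22), and -0.50 also without both muscle-rich libraries. The ratio of Glrb to Gphn was 0.81 ± 0.11 in S156A and 0.78 ± 0.063 in WT (SD, n = 3 each), and the groups overlapped (exact permutation test, two-sided, p = 0.8).

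**Figure D3:**
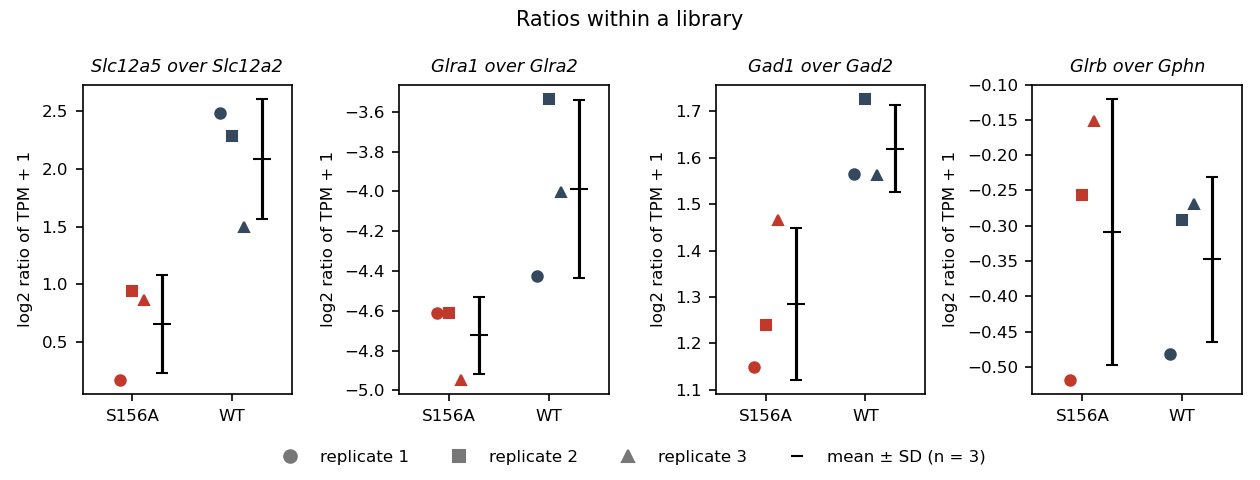
Log2 ratios of TPM + 1 inside each library for 4 pairs of members, with S156A in red, WT in dark blue, a symbol for each replicate and the mean ± SD (n = 3); each panel has its own axis. The groups do not overlap for Slc12a5 over Slc12a2 (difference -1.43), Glra1 over Glra2 (-0.74) and Gad1 over Gad2 (-0.33), and overlap for Glrb over Gphn (0.04).

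GABA-A receptors are pentameric chloride channels built from alpha, beta and gamma subunits or their relatives, and 10 of the 14 subunit genes examined were tested. Of these, 3 were lower at an unadjusted p under 0.05 (Gabrg3, Gabra5 and Gabrb1), against 5.5% of all tested genes. The other 7 were not, and the median log2 difference over the 10 was -0.38. Gabra5, the alpha subunit of many extrasynaptic receptors in the hippocampus (chromosome 7, 57057420 to 57159807), was at 23.5, 37.1 and 40.6 TPM in S156A libraries and at 59.5, 50.3 and 43.2 TPM in WT libraries. The groups did not overlap, though S156A replicate 3 and WT replicate 3 were close (log2 difference -0.61, SE 0.22; limma adjusted p = 0.31). Without S156A replicate 1 it was -0.37 (limma unadjusted p = 0.059). An annotated gene lies on the strand opposite Gabra5, and no source used here states the strand setting of the counting. Gabrb1, a beta subunit, was at 5.90, 8.11 and 5.79 TPM in S156A libraries and at 11.0, 10.5 and 8.41 TPM in WT libraries, with no overlap (log2 difference -0.54, SE 0.21; limma adjusted p = 0.33).

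Gabrg3, a gamma subunit, had the lowest log2 difference of the members, -1.59 (SE 0.33; limma adjusted p = 0.13), but only in the annotated rows. These held 1.1, 0.51 and 0.28 TPM in S156A libraries and 2.96, 3.15 and 5.75 TPM in WT libraries. Loci assembled over the same strand of the gene held 4.56, 15.6 and 11.0 TPM in S156A libraries and 5.68, 12.7 and 5.75 TPM in WT libraries. With those loci the groups overlapped and the log2 difference was 0.28, so the direction for Gabrg3 depends on which rows are read. For Slc32a1, Slc12a5, Glrb, Gphn, Gabbr2 and Gabra5 the assembled loci gave log2 differences of -0.64, -0.84, -0.49, -0.50, -0.58 and -0.62, close to those of the annotated rows. They moved Gabrq to -0.40 and Gabrb1 to -0.39, nearer to 0, and Gabre to -0.62 and Gabrb2 to -0.54, farther from it.

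Among the other tested GABA-A subunits, Gabra3 (-0.39), Gabrg1 (-0.38), Gabrb2 (-0.30) and Gabra4 (-0.25) had overlapping groups. Without S156A replicate 1 the differences of Gabra3, Gabrb2 and Gabra4 were -0.12, -0.015 and -0.075. Without WT replicate 3 those of Gabrg1 and Gabra4 were -0.57 and -0.47. Gabra2, an alpha subunit abundant in the embryonic forebrain, was at 20.1, 26.6 and 22.1 TPM in S156A libraries and at 22.6, 18.9 and 23.4 TPM in WT libraries, and the log2 difference of 0.07 (SE 0.16) turned to -0.01 under trimmed mean scaling. Gabra2, Gabra4, Gabrb1 and Gabrg1 are neighbours on chromosome 5, between 70908390 and 72306380, and their differences ranged between -0.54 and 0.07. Gabre, Gabra3 and Gabrq are neighbours on chromosome X, where Gabrq, the theta subunit, was at 1.18, 4.86 and 1.77 TPM in S156A libraries and at 6.78, 6.15 and 3.10 TPM in WT libraries. S156A replicate 2 lay inside the WT range (log2 difference -0.90, SE 0.44; limma adjusted p = 0.41). Gabre, the epsilon subunit, was at 1.31, 1.05 and 1.26 TPM in S156A libraries and at 1.34, 1.5 and 2.28 TPM in WT libraries, where S156A replicate 1 and WT replicate 1 were nearly equal (log2 difference -0.28, SE 0.27; limma adjusted p = 0.67).

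The 4 untested subunit genes were at low levels. Gabrd, the delta subunit, was at 0.47 to 1.38 TPM in S156A libraries and at 0.62 to 1.62 TPM in WT libraries. Gabra6, the alpha subunit of mature cerebellar granule cells, was listed at 0 in 4 of 6 libraries and at most at 0.22 TPM. Gabrr1 and Gabrr2, the rho subunits best known from retina, stayed at or below 0.64 TPM, with overlapping groups.

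GABA-B receptors are G protein-coupled and work as a dimer of Gabbr1 and Gabbr2. Gabbr2, the subunit that couples to the G protein (chromosome 4, 46662305 to 46991873), was at 27.8, 42.2 and 31.3 TPM in S156A libraries and at 56.0, 49.6 and 48.9 TPM in WT libraries. The groups did not overlap, and the log2 difference stood at -0.61 (SE 0.17; limma adjusted p = 0.20), and -0.53 without both muscle-rich libraries. Gabbr1, which binds GABA, was the most abundant member, at 194.4, 257.9 and 243.3 TPM in S156A libraries and at 298.3, 274.4 and 234.5 TPM in WT libraries, with overlap (log2 difference -0.22, SE 0.15; limma adjusted p = 0.55), and -0.10 without S156A replicate 1. Of 3 auxiliary subunit genes 0 reached an unadjusted p under 0.05, where 5.5% of all tested genes were lower and 8.41% higher. Kctd8 stood at -0.36, Kctd16 at -0.67 and Kctd12 at 0.18 on the log2 scale. Only in Kctd8 did every S156A library lie below every WT library, as in 7.05% of all tested genes.

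The glycine and GABA-A receptor genes were also compared as classes. The median log2 difference was -0.46 over the 3 tested glycine receptor genes and -0.38 over the 10 tested GABA-A receptor genes, and no test was made of the difference between these medians. The 5 glycine receptor genes summed to 51.2, 78.3 and 73.5 TPM in S156A libraries and to 93.1, 76.0 and 73.7 TPM in WT libraries. The 14 GABA-A receptor genes summed to 105.1, 169.8 and 153.4 TPM in S156A libraries and to 206.4, 190.4 and 166.8 TPM in WT libraries. Inside a library the glycine receptor sum was 0.487, 0.461 and 0.479 of the GABA-A sum in S156A, against 0.451, 0.399 and 0.442 in WT. Each S156A library was above each WT library, with S156A replicate 2 and WT replicate 1 close to each other. Most of the glycine receptor sum was Glra2 and Glrb.

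The plasma membrane transporters that remove both transmitters held the only called gene of the pathway lists. Of 6 tested uptake genes, 1 passed the adjusted threshold: Slc6a5, the transporter of glycine-releasing neurons, was at 2.74, 2.61 and 2.1 TPM in S156A libraries and at 11.1, 9.34 and 10.1 TPM in WT libraries, and fell by 1.68 on the log2 scale (SE 0.20; limma adjusted p = 0.046). Calls at this threshold were few, 30 over all genes, and there were none, so also not Slc6a5, when every gene was tested, with the replicate block, without both muscle-rich libraries, or without S156A replicate 2, S156A replicate 3 or WT replicate 2. Slc6a9, the glial glycine transporter, was at 21.4 ± 3.49 TPM in S156A and 27.7 ± 5.69 TPM in WT (SD, n = 3 each), with overlapping groups (limma adjusted p = 0.45). Slc6a11, a GABA transporter of astrocytes, was at 71.5 ± 7.89 TPM in S156A and 124.9 ± 24.6 TPM in WT, and Slc6a13, a GABA transporter of meninges and other non-neuronal cells, at 17.9 ± 0.49 TPM in S156A and 12.9 ± 2.61 TPM in WT (SD, n = 3 each; limma adjusted p = 0.13 and 0.33). Neither pair of groups overlapped. In all, 2 of the 6 uptake genes were lower and 1 was higher at an unadjusted p under 0.05, against 5.5% and 8.41% of all tested genes. Their median log2 difference was -0.27.

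Genes of the inhibitory postsynapse and of receptor traffic gave 0 calls among 16 tested, with a median log2 difference of -0.19. At an unadjusted p under 0.05, 3 were lower and 1 was higher, against 5.5% and 8.41% of all tested genes. Hap1, a huntingtin-associated adaptor in the transport of GABA-A receptors, was at 219.2 ± 35.5 TPM in S156A and 419.4 ± 79.2 TPM in WT (SD, n = 3 each; log2 difference -0.93; limma adjusted p = 0.105). Iqsec3, an exchange factor that binds gephyrin, had a log2 difference of -0.51, and Gabarap, a ubiquitin-like protein that binds gamma subunits, one of 0.33. Of 9 genes of glutamate, GABA and glycine metabolism 0 were called. At an unadjusted p under 0.05, 1 was higher, 11.1% of the list and near the 8.41% of all tested genes. This was Amt of the glycine cleavage system, at 34.8 ± 5.55 TPM in S156A and 25.5 ± 1.20 TPM in WT (SD, n = 3 each, limma adjusted p = 0.28). The next smallest p in that list belonged to Shmt2 (log2 difference 0.37) and Aldh5a1 (-0.31).

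Marker lists of brain regions and cell types were read beside these results, and few of their genes passed the adjusted threshold. Of all tested genes, 5.5% were lower and 8.41% higher at an unadjusted p under 0.05, and 38.3% had a log2 difference below 0. The adjusted threshold was passed by 0.159% of them. Transcription factors of forebrain GABAergic neurons gave 0 calls among 10 tested, but all 10 had log2 differences above 0, 4 were higher at an unadjusted p under 0.05 and the median was 0.44. Lhx6, needed by cortical interneurons, was at 41.2 ± 3.91 TPM in S156A and 25.1 ± 3.81 TPM in WT, and Dlx5 was at 35.8 ± 1.85 TPM in S156A and 26.8 ± 0.39 TPM in WT (SD, n = 3 each). Genes of forebrain position, with a median of 0.51, were above 0 in 8 of 8, with Fezf2 at 0.55 and Tbr1 at 0.62. Of 12 Hox genes, which mark hindbrain and spinal cord, Hoxb5 fell to 11.5 ± 0.55 TPM in S156A, against 27.3 ± 1.83 TPM in WT (SD, n = 3 each; limma adjusted p = 0.045). Hoxc4 and Hoxa5 had log2 differences of -1.18 and -1.04, 7 of the 12 were lower at an unadjusted p under 0.05 and the median over the 12 was -0.74. The Hox sum was 86.8, 63.2 and 64.8 TPM in S156A libraries and 148.0, 119.8 and 131.1 TPM in WT libraries. Cholinergic and motor neuron genes of brainstem and spinal cord summed to 7.67 to 8.68 TPM in S156A libraries and 14.2 to 20.9 TPM in WT libraries, with Slc18a3 at -0.82 and Chat at -0.67 on the log2 scale, and Mnx1, the spinal motor neuron factor, was listed at 0 in S156A libraries and at most at 0.17 TPM in WT libraries.

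Transcription factors of hindbrain and spinal inhibitory neurons gave 0 calls and 0 genes at an unadjusted p under 0.05 among 10 tested, with a median of -0.12. Of the 10, 7 were below 0, with Lbx1, Pax2 and En1, the smallest p, at -0.42, -0.40 and -0.43. The other 3 were above 0, Gata3, Tal1 and Lhx5 at 0.21, 0.09 and 0.05. For 2 of the 10, Lbx1 and Pax2, every S156A library lay below every WT library, against 7.05% of all tested genes. For 0 of the 10 every S156A library lay above, against 13.7%. Ptf1a, of the same list, averaged 0.51 TPM and was not tested. It was at 0.61, 0.91 and 1.13 TPM in S156A libraries and at 0, 0 and 0.44 TPM in WT libraries, without overlap. Pan-neuronal genes had a median of -0.45, with 5 of 8 lower at an unadjusted p under 0.05, against 5.5% of all tested genes. Syp, Rbfox3 and Syt1 were among the 5. Elavl4 was at -0.01, and Map2, at 0.32, was the 1 gene above 0. Astrocyte and microglia markers had medians of 0.20 over 8 genes and 1.40 over 7 genes, with 1 (Gfap) and 3 (Cx3cr1, Fcrls and Trem2) called higher. Of the astrocyte markers 5 were above 0 and 3 below, Aldoc at -0.41 with no overlap, Aldh1l1 at -0.12 and Slc1a2 at -0.03. All 7 microglia markers were above 0, but the groups overlapped for P2ry12 (0.19) and Tmem119 (0.78). The summed microglial level was 158.1 to 178.0 TPM in S156A libraries and 49.2 to 88.9 TPM in WT libraries. Tmem119 gave 41.6 TPM of this sum in S156A replicate 1 and 28.3 TPM in WT replicate 3, both muscle-rich. In the other libraries Tmem119 was at 1.64 to 6.36 TPM. Pituitary hormone genes summed to 161.0 to 349.9 TPM in S156A libraries and to 6.97 to 128.4 TPM in WT libraries. The part of regional makeup, of the neuronal share of the tissue and of the other cell types in the members' differences was not tested.

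**Figure D4:**
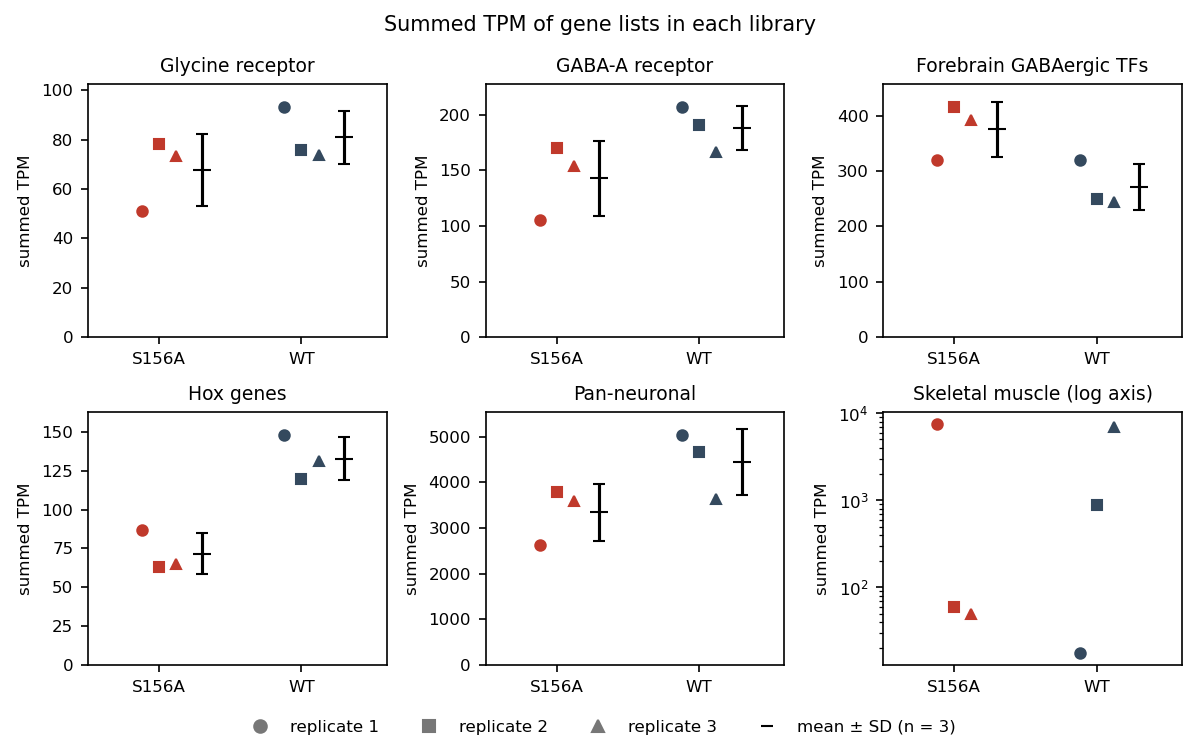
Summed TPM of 6 gene lists in each library, with S156A in red, WT in dark blue, a symbol for each replicate and the mean ± SD (n = 3); the muscle panel has a log axis and no mean, and the other panels start at 0. Hox sums are lower in S156A (63.2 to 86.8 TPM, against 119.8 to 148.0 in WT), sums of forebrain GABAergic factors are 319.5 to 414.7 TPM in S156A and 244.9 to 319.4 TPM in WT, and muscle sums are high in S156A replicate 1 and WT replicate 3.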

How the data were processed

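The deposited FPKM and TPM values, per gene and library, come from StringTie gene abundance tables, per the file headers. The submitters' processing notes list StringTie 2.1.5, HISAT2 2.2.1 and Trim Galore 0.6.6. No source used here states the strand setting, the annotation release or any filter. The tables hold no read counts, so depth was estimated as the commonest ratio of coverage to FPKM (shared by 13.2% to 13.8% of rows with an FPKM above 10), and no counting intervals can be given. The notes name build hg38, but identifiers and chromosomes are mouse; only 2 of 28 members start within 1000 bases of their GRCm38 position, so gene coordinates are as in the files (GRCm39 inferred), apart from the RefSeq promoters in GRCm38.p6.

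Annotated rows sharing an identifier were summed, and assembled loci were used only as a second reading. Limma 3.58.1 in R 4.3.3 (eBayes with trend, no covariate, two-sided, Benjamini-Hochberg over all tested genes) was run on log2(TPM + 1) and tested on simulated data. This scale understates changes of low genes. The 4 ratios were compared by exact permutation over libraries. Alternatives were FPKM, pseudocounts of 0.1 and 5, testing every gene, testing only genes averaging 5 TPM or more, trimmed mean scaling, quantile normalization, eBayes without trend or with robust estimation, a replicate block, each library left out, and both muscle-rich libraries left out. The members and lists were chosen with earlier results of these data known. Members at an unadjusted p under 0.05 or with groups that do not overlap, and Gad1, Gad2, Slc32a1, Slc12a5, Slc12a2, Gphn and Glrb, were given in every library; of each other list up to 3 genes with the smallest p were named, and Slc6a5 and Slc6a9. Some genes that this rule names are not reported here. Other genes were named after their values were seen.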

Additional observations from a re-analysis of the deposited data

How the results depend on the processing

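The count of members past an adjusted p of 0.05 was 0, and that of members higher at an unadjusted p under 0.05 was 1, in each of the 17 alternatives. The count of lower members, 10, ranged between 4 and 13 when single libraries were left out and between 7 and 11 otherwise. The median over tested members ran between -0.56 and -0.31. Deviations of S156A and WT libraries with the same replicate number correlated at -0.55, 0.19 and -0.41. Those of the muscle-rich S156A replicate 1 and WT replicate 3 correlated at 0.65. Since these muscle-rich libraries bear different numbers, the correlations cannot show whether replicate numbers pair the libraries. With the replicate block the count of lower members was 7, with 0 past the adjusted threshold. Of the 11 members at an unadjusted p under 0.05, 5 (Slc32a1, Gphn, Gabbr2, Slc12a2 and Gabrg3) kept such a p in each alternative that tested them, which share these libraries; Gabrg3 was not tested at a mean TPM of at least 5, and its difference was -0.92 on FPKM, -0.66 with a pseudocount of 5 and -2.56 with one of 0.1. With the replicate block Gabra5, Gabrb1 and Glrb missed that threshold. Over all genes, limma called 30 at an adjusted p under 0.05, against 70 without WT replicate 3, 52 with quantile normalization, 47 with trimmed mean scaling, 16 without trend, and 0 when every gene was tested (3364 at an unadjusted p under 0.05) or with the replicate block (1880). Without S156A replicate 1 there was 1, and without WT replicate 1 there were 2. The log2 difference of Slc12a5 ran between -1.18 and -0.63, and that of its ratio to Slc12a2 between -1.72 and -1.18.

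Signs turned for small differences. Gabra2 was -0.010 with trimmed mean scaling and -0.022 with quantile normalization, and Gad2 was -0.013 with trimmed mean scaling. With 1 library or both muscle-rich libraries left out, Gabra2 ran between -0.033 and 0.22, Gad2 between -0.061 and 0.21, Glra2 between -0.18 and 0.11, and Glrb over Gphn between -0.040 and 0.18. Gabrg3 was 0.28 with assembled loci, an alternative chosen after seeing the data, where Glra1 was -0.05. The cause was not tested. Groups of 3 pooled libraries, the low TPM of Glra1, Glra3 and Gabrg3, and the lack of read counts limit what these data can show.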
